A study of Mus musculus with 21 samples.

Results

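The 10 genes described here make up the MHC class II presentation machinery as it was listed for these data. They are H2-Aa, H2-Ab1 and H2-Eb1, chains of the peptide-binding class II molecules, Cd74, the invariant chain, Ciita, the class II transactivator, H2-DMa, H2-DMb1 and H2-DMb2, chains of the peptide editor DM, and H2-Oa and H2-Ob, the chains of DO, which inhibits DM. They were taken from the count table by symbol, and all 10 were found among its 23420 gene symbols. The list itself was chosen with earlier results of these data known. RNA was measured in 21 samples of inflammatory monocytes (IMs), sorted as live CD45+, CD11b+, Ly6C high and Ly6G- cells, with SiglecF+ cells gated out, after monocyte enrichment with a kit. Tumor inflammatory monocytes (TIMs) came from FVB mice bearing KAL-LN2-E1 (LN2E1) lung squamous carcinoma, 500000 cells being placed in the lung, as 5 primary tumor samples and 5 lymph node metastasis samples, and from the lungs of DBA2 mice given 300000 LN4K1 squamous carcinoma cells into a vein (5 samples). Bone marrow (BM) IMs of healthy FVB mice (3 samples) and healthy DBA2 mice (3 samples) were the controls, and no group carried a transgene or a deletion by its labels. The study's methods speak of technical replicates, so p-values measure only the spread between these samples. Cell line, mouse strain, route of injection and tissue changed together between the LN2E1 and the LN4K1 model, and their parts cannot be told apart.

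Class II molecules are pairs of an alpha and a beta chain that bind peptides in endosomes and show them to CD4 T cells at the cell surface. In mice these pairs are I-A, made by H2-Aa and H2-Ab1, and I-E, made by an E alpha chain and H2-Eb1. CD74 fills the groove of new pairs, DM then helps to swap its remnant for a peptide, and DO holds DM back. Ciita switches on most of these genes together through short promoter elements called X and Y boxes, and interferon gamma is a known inducer of Ciita. Most class II genes lie in the highly variable H2 region, and the strains carry different versions of it. FVB mice have the q haplotype, which is known not to display I-E, DBA2 mice have the d haplotype, which does, and the reference genome to which reads were aligned is from a mouse with the b haplotype.

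Promoter windows of 6 of the 10 genes held letters of the X and Y boxes close together, and stretches of 4 of them are shown. RefSeq windows of 300 bases, reaching 250 bases before the annotated start site, were at hand for 7 of the 10 genes (H2-Aa, H2-Eb1, H2-DMa with 2 windows, H2-DMb1, H2-DMb2, H2-Oa and H2-Ob), in build GRCm38.p6. The stretches below run 5′ to 3′ along each gene and overlap no annotated exon. That of H2-DMb2 lies before the start site of its window but within the annotated span of the gene (chr17:34143307-34151555). Capitals mark letters of the X boxes (GCAAC of X1 and ATGATG, which spans the border of X1 and X2) and of the Y box (GATTGG). They are sequences of the b haplotype and may differ from those of FVB and DBA2 mice.
H2-Aa (chr17:34287853-34287916, minus strand): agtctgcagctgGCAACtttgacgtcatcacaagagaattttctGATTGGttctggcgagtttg
H2-Eb1 (chr17:34305764-34305826, plus strand): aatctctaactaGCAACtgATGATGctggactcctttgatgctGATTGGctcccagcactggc
H2-DMb2 (chr17:34145121-34145177, plus strand): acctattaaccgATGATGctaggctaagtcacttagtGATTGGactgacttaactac
H2-Ob (chr17:34238806-34238866, plus strand): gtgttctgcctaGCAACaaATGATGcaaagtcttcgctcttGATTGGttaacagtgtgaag

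On either strand, GATTGG was found in windows of all 7 genes and in 16.1% of 32851 promoter windows of the whole table. GCAAC was found in windows of 5 of the 7 and in 35.2% of all windows, and ATGATG in 4 of the 7 and in 11.2% of all windows. X box letters followed by a Y box on the strand of the gene, with at most 40 bases between them, were present in 6 of the 7 genes and in 0.371% of all windows. In these 6 genes the Y box began between 91 and 44 bases before the start site. Neither window of H2-DMa held such a pair, which says only that these letters are not in the windows. The motif letters were chosen with the windows in view, and a match is a description, not a site of binding.

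**Figure D1:**
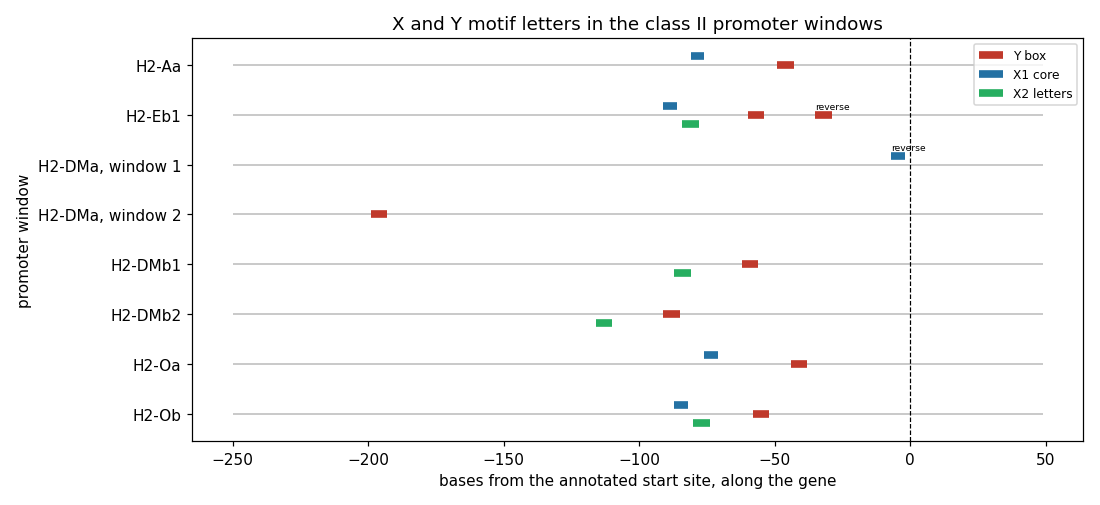
Positions of the X and Y box letters in 8 promoter windows of 7 class II genes, plotted as bases from the annotated start site along the gene (dashed line). Each grey line is a window and each bar a match, and in H2-Aa, H2-Eb1, H2-DMb1, H2-DMb2, H2-Oa and H2-Ob X letters stand just before a Y box, while in H2-DMa they do not.

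Total counts per library lay between 80772922 and 101043568, and no 2 libraries held the same values. Values below are CPM, the counts of a gene brought to a common library size with TMM factors. Between 11047 and 14512 genes reached 10 counts in a library. LN4K1 lung replicate 3 stood apart in its group, with 12015 such genes against at least 13272 in the other 4 libraries and with the lowest Itgam (327 CPM) and Csf1r (785 CPM) of the 5, and results of the lung comparison are also given without it. The 9 monocyte markers summed to between 10944 and 16833 CPM in every library. Of them, 5, 3 and 3 were higher and 2, 3 and 2 lower (adjusted p below 0.05) in primary tumors, lymph nodes and lungs than in BM IMs. Of all genes tested, 33.3%, 20.2% and 13.9% were higher and 28.6%, 17.2% and 11% lower at that threshold. Ly6c2, which encodes part of the sorted Ly6C antigen, lay between 2434 and 3600 CPM in BM IMs and between 974 and 1688 CPM in TIMs, without overlap. Its log2 fold changes in the 3 comparisons in which class II genes rose were -1.30, -1.17 and -0.88 (adjusted p = 1.68e-05, 0.00116 and 9.03e-04 by edgeR), and its part in their results was not tested.

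In every TIM group the classical chains, Cd74 and Ciita stood many fold above BM IMs, and the DM chains rose with smaller fold changes. Of the DO chains, H2-Ob rose at both LN2E1 sites. H2-Oa passed an adjusted p of 0.05 in primary tumors only, but at which LN2E1 site it passed changed with the fit. A differentially expressed gene (DEG) had an adjusted p below 0.0001 and an absolute log2 fold change above 1 by edgeR's quasi-likelihood test, adjusted after Benjamini and Hochberg for all genes tested. Of the 10 genes, 5 were DEGs with higher levels in LN2E1 primary tumor TIMs than in FVB BM IMs, beside 7.72% of the 14569 genes tested. For LN2E1 lymph node TIMs these were 4 of 10, beside 4.01% of 13273 genes, and for LN4K1 lung TIMs against DBA2 BM IMs 4 of 10, beside 1.21% of 13624 genes. At an adjusted p below 0.05, 10, 9 and 8 of the 10 genes were higher, beside 33.3%, 20.2% and 13.9% of all genes, and none of the 10 was lower. The median log2 fold change of the 10 genes was 3.42, 3.32 and 2.35, while that of all genes tested was 0.08, -0.04 and 0.03. Without LN4K1 lung replicate 3 the lung comparison gave 6 DEGs, Ciita and H2-DMb1 being added, with log2 fold changes of 3.07 for H2-Aa, 3.27 for H2-Ab1, 3.11 for H2-Eb1 and 2.75 for Cd74. It gave 0 DEGs among the 10 genes when a single control library was left out, whichever of the 3, or when lung replicate 1 or 2 was, but 8 of 10 genes passed an adjusted p of 0.05 in each fit that left out a library. The primary tumor and the lymph node comparison share the same FVB BM IM libraries. In bulk samples a higher level per cell and more cells that express the gene cannot be told apart.

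**Figure D2:**
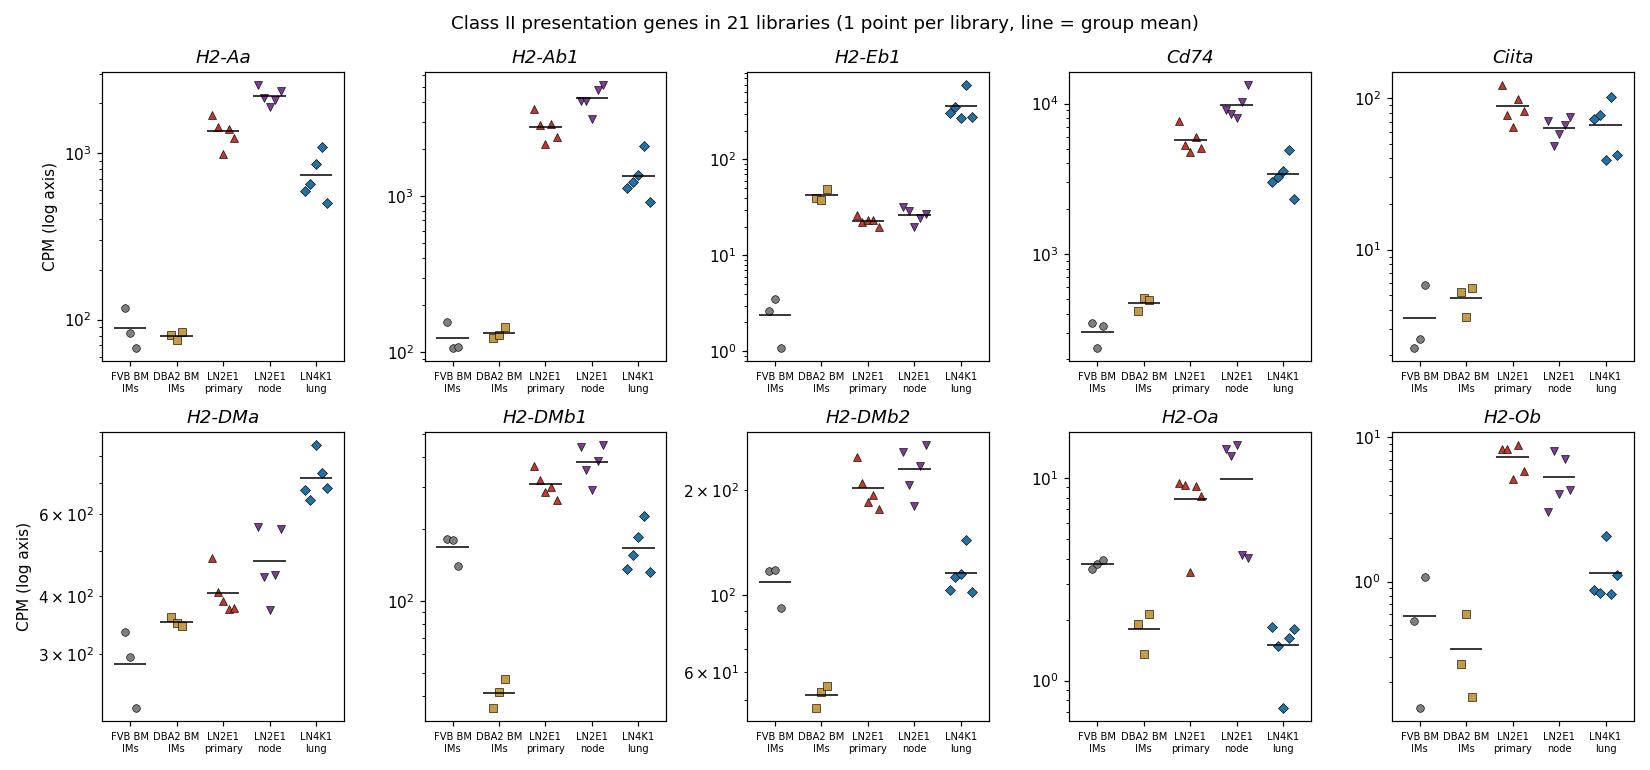
CPM on a log axis for each of the 10 genes, with 1 point per library in 5 groups and a line at each group mean. The classical chains, Cd74 and Ciita lie higher in all 15 TIM libraries than in the BM IM libraries of the same strain, H2-Eb1 differs between the strains at every site, and H2-Oa in LN4K1 lung TIMs overlaps DBA2 BM IMs.

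H2-Ab1 (chr17:34257689-34269419), the beta chain of I-A, showed one of the steepest rises. In FVB BM IMs it stood at 155, 106 and 108 CPM. In LN2E1 primary tumor TIMs it stood at 3627, 2874, 2152, 2885 and 2398 CPM, and in lymph node TIMs at 4070, 4071, 3098, 4803 and 5148 CPM. All 10 TIM libraries thus lay far above the 3 BM IM libraries, with a log2 fold change of 4.48 ± 0.23 (SE, adjusted p = 4.69e-07 by edgeR) in primary tumors and of 5.11 ± 0.24 (adjusted p = 4.80e-07) in lymph nodes, or 22.4-fold and 34.5-fold. DBA2 BM IMs held 122, 129 and 144 CPM, close to the FVB values, and LN4K1 lung TIMs 1118, 1222, 1367, 2095 and 918 CPM. That rise was 9.68-fold (log2 fold change 3.28 ± 0.28, adjusted p = 3.66e-05).

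H2-Aa (chr17:34282744-34287823), which encodes the alpha chain that pairs with H2-Ab1, moved in the same way. FVB BM IMs held 118, 83.2 and 67.4 CPM. The gene reached 1705, 1434, 984, 1407 and 1233 CPM in primary tumor TIMs and 2568, 2144, 1891, 2098 and 2376 CPM in lymph node TIMs. The log2 fold changes were 3.90 ± 0.24 and 4.63 ± 0.22 (adjusted p = 1.34e-06 and 5.30e-07). In the DBA2 mice the BM IM libraries held 80.7, 75.4 and 83.8 CPM and the lung TIM libraries 589, 652, 859, 1085 and 504 CPM. Groups did not overlap, and the log2 fold change was 3.13 ± 0.27 (adjusted p = 3.91e-05).

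H2-Eb1 (chr17:34305867-34316674), the beta chain of I-E, rose in all 3 TIM groups but at very different levels in the strains. FVB BM IMs held 2.65, 3.53 and 1.08 CPM, primary tumor TIMs 26.6, 22.02, 23.4, 23.3 and 19.9 CPM and lymph node TIMs 32.0, 28.7, 19.7, 24.3 and 26.7 CPM. DBA2 BM IMs already held 39.4, 38.2 and 48.8 CPM, above every FVB library including the TIMs, and LN4K1 lung TIMs held 306, 354, 268, 597 and 279 CPM. The highest of these, replicate 4, was also the highest of its group for H2-Aa, H2-Ab1, Cd74 and Ciita. The log2 fold changes from BM IMs to TIMs were nevertheless close, at 3.24 ± 0.34 in primary tumors (adjusted p = 3.68e-05), 3.45 ± 0.40 in lymph nodes (adjusted p = 1.14e-04, which misses the DEG threshold) and 3.02 ± 0.30 in LN4K1 lungs (adjusted p = 9.58e-05). Of 8 fits that each left out a library, H2-Eb1 was a DEG in 2 for primary tumors and in 2 for the lungs. In FVB BM IMs these values rest on 121 to 346 counts, the fewest for any classical chain.

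The ratio of both beta chains within a library showed the strain difference most plainly. Per kb of exon, H2-Eb1 reached 2.66% ± 1.57 (SD, n = 3) of H2-Ab1 in FVB BM IMs, 1.12% ± 0.19 (n = 5) in primary tumor TIMs and 0.833% ± 0.159 (n = 5) in lymph node TIMs. In DBA2 mice it was 42.2% ± 2.8 (n = 3) in BM IMs and 35.6% ± 5.6 (n = 5) in lung TIMs, where replicate 3 was lowest at 25.9%. The highest FVB library, at 4.39%, lay far below the lowest DBA2 library. H2-Ea-ps, the reference's entry for the E alpha gene, which is a polymorphic pseudogene there, followed the same split. It stood at 26.7% ± 2.5 of H2-Aa per kb in FVB BM IMs and at 19.1% ± 2.3 and 14.1% ± 2.7 in primary tumor and lymph node TIMs, against 215% ± 18 in DBA2 BM IMs and 244% ± 19 in LN4K1 lung TIMs. Strain, haplotype and how well reads of each haplotype align to the b reference cannot be told apart in these levels.

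**Figure D3:**
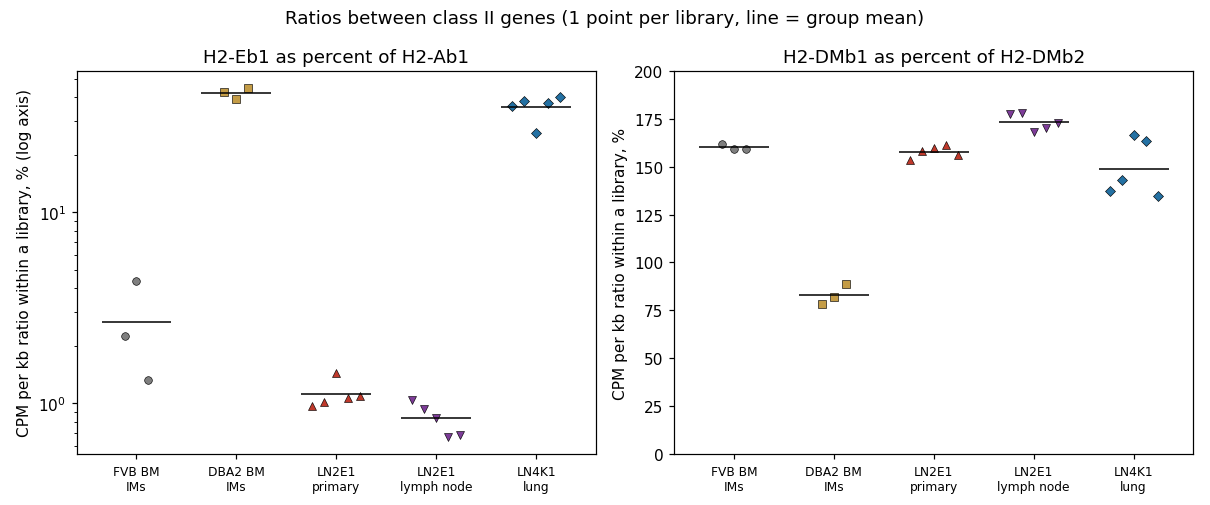
Ratios of CPM per kb of exon within each library, with 1 point per library and a line at each group mean. On the log axis at left, H2-Eb1 lies between 25.9% and 44.7% of H2-Ab1 in DBA2 libraries and at most at 4.39% in FVB libraries, and at right H2-DMb1 lies below H2-DMb2 in DBA2 BM IMs alone among the 5 groups.

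Cd74 encodes the invariant chain, which escorts new class II pairs and also serves as a surface receptor for the cytokine MIF. It was the highest of the 10 genes per kb in each of the 5 groups, with means between 182 and 5841 CPM per kb. FVB BM IMs held 347, 237 and 333 CPM of it, primary tumor TIMs 7650, 5296, 4789, 5949 and 5093 CPM and lymph node TIMs 9003, 8523, 7985, 10250 and 13275 CPM. The rise was 18.5-fold in primary tumors (log2 fold change 4.21 ± 0.22, adjusted p = 4.87e-07) and 32.0-fold in lymph nodes (5.00 ± 0.25, adjusted p = 5.86e-07). DBA2 BM IMs held 417, 514 and 494 CPM and lung TIMs 3018, 3260, 3546, 4877 and 2324 CPM, 6.81-fold higher (log2 fold change 2.77 ± 0.25, adjusted p = 4.47e-05). Cd74 stayed within 282% to 610% of H2-Ab1 per kb in all 21 libraries, although both genes changed many fold.

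Ciita (chr16:10480059-10528418), the transactivator of the class II genes, was low in BM IMs and rose at every site. It stood at 2.24, 2.56 and 5.82 CPM in FVB BM IMs, the third library holding more than the other two together. Primary tumor TIMs held 122, 77.0, 64.9, 99.5 and 81.9 CPM and lymph node TIMs 70.9, 48.7, 58.2, 66.2 and 74.9 CPM. These are log2 fold changes of 4.62 ± 0.40 (adjusted p = 1.20e-05) and 4.16 ± 0.38 (adjusted p = 2.28e-05), and with a library left out Ciita stayed a DEG in 7 of 8 fits in primary tumors but in 2 of 8 in lymph nodes. In DBA2 mice BM IMs held 5.26, 3.58 and 5.55 CPM and lung TIMs 72.7, 77.3, 38.8, 102 and 42.2 CPM, 13.2-fold higher (log2 fold change 3.72 ± 0.39, adjusted p = 1.22e-04, just past the DEG threshold on the wrong side). Without lung replicate 3, the lowest of the 5, Ciita passed with an adjusted p of 1.65e-05. An exon of Dexi overlaps Ciita on the opposite strand, and reads without strand cannot separate them.

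The peptide editor DM was already abundant in BM IMs and rose far less than the molecules it acts on. H2-DMa (chr17:34119541-34139101), its alpha chain, stood at 334, 295 and 229 CPM in FVB BM IMs, at 375 to 482 CPM in primary tumor TIMs and at 374 to 562 CPM in lymph node TIMs. It stood at 361, 350 and 344 CPM in DBA2 BM IMs and at 644 to 845 CPM in LN4K1 lung TIMs. All TIM libraries lay above the BM IM libraries of their strain, yet the log2 fold changes were 0.49 ± 0.13, 0.74 ± 0.17 and 0.95 ± 0.12 (adjusted p = 0.00861, 0.00773 and 3.45e-04), under the DEG threshold. Per kb, H2-DMa fell from 175% ± 28 (SD, n = 3) of H2-Ab1 in FVB BM IMs to 11.1% ± 1.6 and 8.45% ± 1.26 in primary tumor and lymph node TIMs (n = 5 each), and from 200% ± 21 in DBA2 BM IMs to 42.4% ± 10.8 in lung TIMs. Some H2-DMa exon bases overlap Brd2 on the other strand.

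H2-DMb1 (chr17:34153072-34160230) and H2-DMb2 (chr17:34143307-34151555) are neighbouring copies of the DM beta chain gene. Their longest reference transcripts are 94.6% identical over 1219 aligned bases, and 26.6% of the 50-base windows of H2-DMb1 occur unchanged in H2-DMb2, so the split of reads between them is uncertain. H2-DMb1 stood at 182, 180 and 140 CPM in FVB BM IMs, at 265 to 368 CPM in primary tumor TIMs and at 290 to 447 CPM in lymph node TIMs. H2-DMb2 moved alike, with 117, 118 and 91.5 CPM in the BM IMs and ranges of 176 to 249 and 180 to 269 CPM at the tumor sites. The log2 fold changes in the FVB mice lay between 0.86 and 1.19 for both genes, with adjusted p between 3.09e-04 and 5.92e-04.

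In the DBA2 mice the copies parted. DBA2 BM IMs held 35.5, 41.5 and 46.9 CPM of H2-DMb1 and 47.2, 52.6 and 54.7 CPM of H2-DMb2, below all FVB BM IM libraries. LN4K1 lung TIMs held 136, 155, 184, 226 and 132 CPM of H2-DMb1 and 103, 113, 115, 144 and 102 CPM of H2-DMb2. H2-DMb1 rose by 1.94 ± 0.21 on the log2 scale (adjusted p = 1.63e-04) and H2-DMb2 by 1.09 ± 0.15 (adjusted p = 5.94e-04). Per kb, H2-DMb1 stood at 83.0% ± 5.5 of H2-DMb2 in DBA2 BM IMs and at 149% ± 15 in lung TIMs of the same strain, with no overlap, while the 13 FVB libraries all lay between 154% and 178%.

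The DO chains were the scarcest of the 10 genes per kb together with Ciita and, in FVB mice, H2-Eb1. H2-Ob (chr17:34238903-34254414), the DO beta chain, stood at 0.534, 0.132 and 1.07 CPM in FVB BM IMs, which are 13 to 120 counts. It reached 8.24, 8.35, 5.13, 8.81 and 5.85 CPM in primary tumor TIMs and 3.04, 8.09, 4.07, 7.11 and 4.30 CPM in lymph node TIMs. Neither TIM group overlapped the BM IMs, and the log2 fold changes were 3.61 ± 0.59 (adjusted p = 5.73e-04) and 3.18 ± 0.76 (adjusted p = 0.00871). In DBA2 mice H2-Ob went from 0.267, 0.599 and 0.158 CPM to 0.881, 0.834, 2.07, 0.828 and 1.12 CPM, with no overlap either but with an adjusted p of 0.0976 (log2 fold change 1.66 ± 0.66), which DESeq2 put at 0.0271. All of its lung TIM values lay below all of its LN2E1 TIM values.

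H2-Oa (chr17:34092340-34095234), the DO alpha chain, varied widely among the libraries of each TIM group. FVB BM IMs held 3.56, 3.78 and 3.94 CPM. Primary tumor TIMs held 9.48, 9.22, 3.42, 9.11 and 8.12 CPM, so that replicate 3 alone fell to the level of the BM IMs, and lymph node TIMs held 13.97, 12.9, 14.5, 4.18 and 4.04 CPM, with replicates 4 and 5 only just above BM IMs. The log2 fold changes were 1.04 ± 0.31 (adjusted p = 0.0161) and 1.40 ± 0.52 (adjusted p = 0.0579). With all 5 groups in 1 fit the primary tumor value lost its call (adjusted p = 0.0610) and the lymph node value gained one (adjusted p = 0.0186). In the lymph node comparison the adjusted p became 0.0293 without replicate 4 and 0.0271 without replicate 5. DBA2 BM IMs held 1.90, 1.36 and 2.12 CPM and lung TIMs 1.83, 1.48, 0.729, 1.61 and 1.81 CPM, which overlapped (log2 fold change -0.34 ± 0.41, adjusted p = 0.605).

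Within each TIM group, the libraries lowest in H2-Oa were also lowest in Siglech, a marker of plasmacytoid dendritic cells. Siglech stood at 103, 167, 64.7, 175 and 93.5 CPM in primary tumor TIMs, at 328, 245, 477, 131 and 37.1 CPM in lymph node TIMs and at 24.4, 27.1, 4.34, 17.2 and 55.4 CPM in lung TIMs. Replicate 3 was lowest for both genes in primary tumors and in lungs, and lymph node replicates 4 and 5 were the lowest of their group for both. Siglech was at most 1.31 CPM in BM IMs, where H2-Oa was nonetheless at 3.56 to 3.94 CPM in FVB mice. In primary tumors, replicate 3 was also the lowest library for H2-Aa, H2-Ab1, Cd74, Ciita and H2-Ob. In lungs, replicate 3, which stood apart in its group, was also lowest for H2-Eb1 and Ciita but highest for H2-DMa. These lows were thus not particular to H2-Oa. Lymph node replicate 5 was instead highest for H2-Ab1, Cd74, Ciita, H2-DMb1 and H2-DMb2. H2-Ob did not follow the order of Siglech in lymph node TIMs, where it was lowest in replicate 1. Nor did it in lung TIMs, where H2-Ob was highest in replicate 3, at 2.07 CPM. Between groups the order did not hold either, since lymph node replicate 4 held more Siglech than primary tumor replicates 1, 3 and 5, of which replicates 1 and 5 held more H2-Oa. Over the 21 libraries, Pearson's r between the log2 CPM of H2-Oa and Siglech was 0.613, a description over libraries that share their groups. The part of such cells in the H2-Oa result was not tested. An exon of BC051537 overlaps H2-Oa on the opposite strand.

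**Figure D4:**
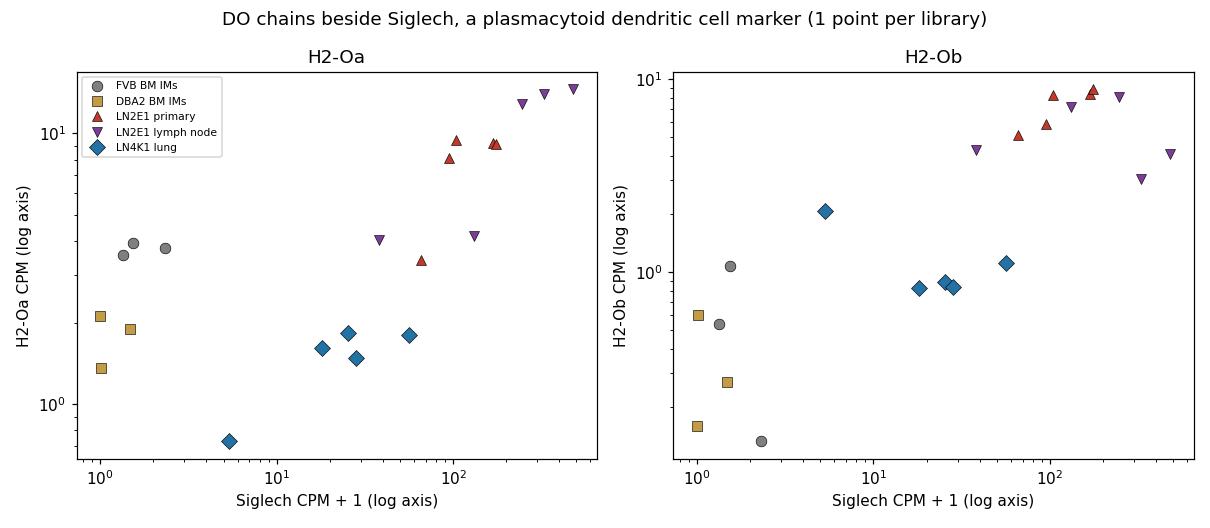
CPM of H2-Oa (left) and H2-Ob (right) against CPM of Siglech plus 1, with 1 point per library and log axes. Lymph node replicates 4 and 5 and replicate 3 of the primary tumors and of the lungs lie lowest in their groups for H2-Oa and Siglech, and LN4K1 lung TIMs lie below the LN2E1 TIMs on both axes of each panel with the exception of Siglech in 1 lung library.

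Between lymph node and primary tumor TIMs, which come from the same model, the median log2 fold change of the 10 genes was 0.28. From BM IMs to primary tumor and to lymph node TIMs it was 3.42 and 3.32. None of the 10 genes was a DEG between these sites by edgeR or by DESeq2, where 0% of all genes tested were higher and 0.0297% lower DEGs by edgeR. At an unadjusted p below 0.05, 5 of the 10 differed, beside 25.8% of all genes, and 3 were higher in lymph nodes at an adjusted p below 0.05, beside 6.15% of 13488 genes tested. They were Cd74 (log2 fold change 0.78 ± 0.16, adjusted p = 0.0109), H2-Aa (0.72 ± 0.14, adjusted p = 0.00732) and H2-Ab1 (0.61 ± 0.16, adjusted p = 0.0325). Cd74 and H2-Aa did not overlap between the sites, whereas the lowest lymph node library of H2-Ab1 lay within the primary tumor range. The call of H2-Ab1 was lost in 7 of 10 fits that each left out a library, with adjusted p between 0.0530 and 0.0832 in these, while Cd74 and H2-Aa passed in 10 of 10. Ciita had the opposite sign (-0.47 ± 0.18), with an adjusted p of 0.111 by edgeR and 0.0410 by DESeq2.

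Between the strains, BM IMs held about the same amount of the I-A chains but differed in other members. H2-DMb1 was a DEG, lower in DBA2 than in FVB BM IMs by 3.98-fold (log2 fold change -1.99 ± 0.14, adjusted p = 9.43e-05), beside 0.124% of 12905 genes. At an adjusted p below 0.05, 2 genes were higher in DBA2, beside 11.5% of genes, namely H2-Eb1 (17.9-fold, log2 fold change 4.16 ± 0.39, adjusted p = 3.68e-04) and Cd74 (0.66 ± 0.16, adjusted p = 0.0230). Lower at that threshold were 3 genes, beside 9.57% of all, namely H2-DMb1, H2-DMb2 (-1.05 ± 0.12, adjusted p = 0.00111) and H2-Oa (-1.04 ± 0.30, adjusted p = 0.0407). With 1 library omitted at a time, H2-DMb1 stayed a DEG in 1 of 6 fits, that without FVB replicate 3. In these 6 fits H2-Oa lost its call each time (adjusted p from 0.0554 to 0.118), and Cd74 lost it without FVB replicate 2 (0.0573) or DBA2 replicate 2 (0.0809) or 3 (0.0821). H2-Aa and H2-Ab1 had log2 fold changes of -0.14 ± 0.18 and 0.12 ± 0.15 and overlapped between the strains. H2-Ea-ps, which is not among the 10, was 7.29-fold higher in DBA2 (adjusted p = 1.46e-04). Strain and the alignment of its haplotype to the b reference cannot be told apart in any of these differences within the H2 region, those of H2-DMb1, H2-DMb2 and H2-Oa included. The rise in H2-DMb1 from DBA2 BM IMs to lung TIMs therefore started from a level that in FVB mice was not seen at any site.

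Whether the rise itself differed between the models was tested as an interaction, the change in LN2E1 primary tumors minus the change in LN4K1 lungs. At an adjusted p below 0.05, 4 of the 10 genes differed, beside 26.5% of the 15182 genes tested. The rise was larger in the primary tumors for Cd74 (difference of log2 fold changes 1.46 ± 0.30, adjusted p = 0.00299), H2-Ab1 (1.22 ± 0.32, adjusted p = 0.0123) and H2-Oa (1.40 ± 0.48, adjusted p = 0.0422). It was smaller there for H2-DMb1 (-1.06 ± 0.24, adjusted p = 0.00529). H2-Eb1, whose levels differed most between the strains, gave 0.24 ± 0.42 (adjusted p = 0.740), H2-Aa 0.79 ± 0.33 (adjusted p = 0.0889) and H2-Ob 1.97 ± 0.78 (adjusted p = 0.0727). The H2-Oa difference passed in 5 of 16 fits that each left out a library, while those of Cd74, H2-Ab1 and H2-DMb1 passed in 16 of 16.

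**Figure D5:**
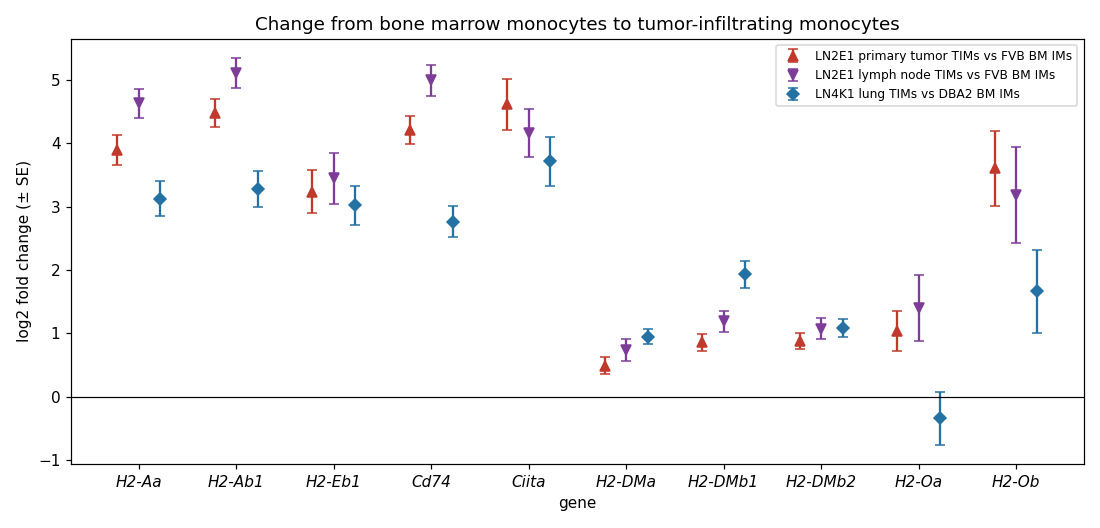
Log2 fold change with its standard error for each of the 10 genes in the 3 comparisons of TIMs with BM IMs of the same strain. Classical chains, Cd74 and Ciita lie between 2.77 and 5.11, the DM chains between 0.49 and 1.94, and H2-Oa crosses from 1.40 in lymph nodes to -0.34 in LN4K1 lungs.

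Genes of the interferon gamma pathway were mostly higher in TIMs as well. Of 9 listed genes, 9 were higher at an adjusted p below 0.05 in primary tumors, 8 in lymph nodes and 5 in LN4K1 lungs, beside 33.3%, 20.2% and 13.9% of all genes, with a median log2 fold change of 1.25, 1.31 and 0.74. Socs1, a feedback inhibitor of cytokine receptors, had log2 fold changes of 4.37 ± 0.18, 5.38 ± 0.23 and 2.96 ± 0.17. Irf1, a transcription factor that acts on Ciita, had 2.87 ± 0.20, 3.60 ± 0.21 and 1.86 ± 0.16. Jak2, a kinase of the receptor, rose by 1.25 ± 0.19, 1.42 ± 0.26 and 1.06 ± 0.27 on the same scale. Over the 21 libraries and 8008 genes with a mean log2 CPM above 3, the genes whose log2 CPM was most like that of Cd74 were Igtp, Fam26f, Fgl2, Gbp2 and Gbp3, with Pearson's r between 0.986 and 0.990, a description over libraries that share their groups. For H2-Oa they were Ptprs, Tfrc, Cd81, Man2a2 and Ggcx, with r between 0.880 and 0.929.

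Factors that sit on the X and Y boxes themselves make up a further list. Of 7 genes, 2 were higher and 2 lower in primary tumors, 0 higher and 2 lower in lymph nodes, and 0 higher and 2 lower in LN4K1 lungs at an adjusted p below 0.05, where 33.3%, 20.2% and 13.9% of all genes tested were higher and 28.6%, 17.2% and 11% lower. Nfyb, a subunit of the Y box factor NF-Y, fell by 0.85, 1.08 and 0.87 on the log2 scale (adjusted p = 0.00109, 0.00575 and 0.00123). Rfx5, a subunit of the X box factor, changed by 0.68 ± 0.26 (adjusted p = 0.0439), 0.45 ± 0.44 (adjusted p = 0.467) and -0.69 ± 0.31 (adjusted p = 0.141).

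Endosomal genes that cut the invariant chain or prepare peptides were higher at an adjusted p below 0.05 in 5, 5 and 4 of 9 cases and lower in 2, 1 and 0, beside the same shares of all genes. Lgmn, an asparaginyl endopeptidase, had log2 fold changes of 3.42 ± 0.22, 3.40 ± 0.21 and 1.76 ± 0.16, and Ctsl, cathepsin L, of 2.63 ± 0.25, 2.31 ± 0.37 and 1.11 ± 0.16. Ctss, cathepsin S, which trims the invariant chain in antigen-presenting cells, had 1.19 ± 0.12 in primary tumors and 1.62 ± 0.17 in the lungs and rose in lymph nodes too (adjusted p = 3.45e-05). Sppl2a, a protease that clears the last membrane fragment of CD74, rose by 1.06 ± 0.16 and 2.12 ± 0.18 in the LN2E1 sites and had 0.42 ± 0.19 (adjusted p = 0.138) in the lungs. Ifi30, a thiol reductase of the same compartment, fell by 1.15 and 1.37 in the LN2E1 sites.

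At the cell surface, Cd83, which keeps class II molecules from being turned over, rose by 4.55 ± 0.19, 4.86 ± 0.22 and 3.79 ± 0.64 on the log2 scale. March1, a ligase that removes class II molecules, had 0.13 ± 0.10, -0.04 ± 0.12 and 0.87 ± 0.13, passing only in the lungs (adjusted p = 0.00114). March8, also in this list, had 1.26 in primary tumors, with 18.9 to 25.6 CPM there and 5.36 to 13.4 CPM in FVB BM IMs. Of these 3 genes, 2, 1 and 2 were higher at an adjusted p below 0.05 and none lower, beside 33.3%, 20.2% and 13.9% of all genes higher. Among 4 costimulatory genes, 4, 3 and 3 were higher at an adjusted p below 0.05 and none lower. Of all genes tested, 33.3%, 20.2% and 13.9% were higher and 28.6%, 17.2% and 11% lower. Cd86 had log2 fold changes of 2.35 ± 0.12, 2.76 ± 0.20 and 1.22 ± 0.16, Cd80 of 2.05 ± 0.27, 1.82 ± 0.19 and 1.98 ± 0.26, and Cd40 of 1.84 ± 0.18, 2.10 ± 0.19 and 0.85 ± 0.21. Of 5 partners of CD74, 4, 3 and 2 were higher and 1 lower in each comparison at that threshold, beside 33.3%, 20.2% and 13.9% of all genes higher and 28.6%, 17.2% and 11% lower. Mif, its ligand, rose by 0.93 ± 0.14 and 0.95 ± 0.18 in the LN2E1 sites and had -0.06 ± 0.14 in the lungs, while the coreceptor gene Cd44 rose by 1.65 ± 0.12, 1.62 ± 0.12 and 1.22 ± 0.10 and Cxcr4 fell by 1.32, 1.10 and 2.10. H2-Eb2, a further class II beta chain gene, passed only in primary tumors (4.19 ± 1.30, adjusted p = 0.0185).

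Markers of other class II positive cells moved with these genes in part. The 13 dendritic cell markers summed to 156 to 176 CPM in BM IMs of FVB mice and reached 269 to 439 CPM in the TIMs of LN2E1 primary tumors and 186 to 783 CPM in those of lymph nodes. Their sum was 157 to 161 CPM in DBA2 BM IMs and 196 to 455 CPM in LN4K1 lung TIMs. Among them Itgax went from at most 1.38 CPM in FVB BM IMs to at least 46.7 CPM in the LN2E1 TIMs, and Flt3 from at most 9.76 CPM to at least 24.2 CPM. In DBA2 mice Flt3 went from 12.7 to 16.3 CPM in BM IMs to 30.9 to 55.5 CPM in lung TIMs. Ccr7 was at most 0.265 CPM in FVB BM IMs and stood at 15.3 to 32.0 CPM in primary tumor TIMs, and Zbtb46 went from at most 1.24 CPM to 2.61 to 4.63 CPM there. Zbtb46 spanned 0.0121 to 3.37 CPM in lymph node TIMs and overlapped between DBA2 BM IMs and lung TIMs. Cd24a fell, from at least 62.4 CPM in FVB BM IMs to at most 28.9 CPM in LN2E1 TIMs. In DBA2 mice Cd24a fell from at least 32.2 CPM to at most 13.9 CPM. Cd209a had means of 73.9, 56.3 and 43.8 CPM in FVB BM IMs, primary tumor and lymph node TIMs. Its means were 83.7 and 129 CPM in DBA2 BM IMs and lung TIMs. Xcr1 and Clec9a were at most 4.62 CPM in all 21 libraries. Siglech had the highest mean of the 13 genes in primary tumor and lymph node TIMs, 121 and 244 CPM, against 0.730 CPM in FVB BM IMs. Of the 13 genes, 9, 5 and 7 were higher and 1, 1 and 2 lower at an adjusted p below 0.05 in primary tumors, lymph nodes and lungs. The shares of all genes tested were 33.3%, 20.2% and 13.9% higher and 28.6%, 17.2% and 11% lower. Of 11 B cell markers, 10 were in the table, and their sum in FVB mice spanned 38.6 to 53.6 CPM (BM IMs), 28.7 to 57.1 CPM (primary tumors) and 31.5 to 64.6 CPM (lymph nodes). In DBA2 mice it spanned 60.6 to 81.1 CPM (BM IMs) and 70.9 to 123 CPM (lungs). At an adjusted p below 0.05, 2, 0 and 0 of them were higher and 2, 1 and 0 lower, beside the same shares of all genes. Ms4a1, Pax5 and Ebf1, which define B cells, were each at most 0.605 CPM in every library. Cd22 rose in primary tumors (log2 fold change 3.23 ± 0.35, adjusted p = 4.13e-05), its libraries lying between 1.44 and 2.15 CPM in the controls and between 12.3 and 29.6 CPM in the tumors, and Blk rose there to at most 0.931 CPM (4.45 ± 1.29, adjusted p = 0.0133). Cd22 spanned 18.3 to 41.3 CPM in DBA2 BM IMs and 34.6 to 84.3 CPM in lung TIMs (0.90 ± 0.35, adjusted p = 0.0932). The 8 macrophage markers in the table summed to 562 to 753 CPM in BM IMs of FVB mice and 602 to 626 CPM in those of DBA2 mice, and to 1192 to 1461 and 1234 to 1821 CPM in primary tumor and lymph node TIMs and 947 to 1177 CPM in lung TIMs. At an adjusted p below 0.05, 4, 3 and 2 macrophage markers were higher and 0, 0 and 1 lower, beside the same shares of all genes. Fcgr1 had means of 15.6, 350 and 459 CPM in FVB BM IMs, primary tumor and lymph node TIMs. C1qa, C1qb and C1qc had lower means in lung TIMs (3.83, 7.75 and 5.85 CPM) than in DBA2 BM IMs (7.77, 12.7 and 11.3 CPM). Their means were higher in both LN2E1 groups than in FVB BM IMs. The part of dendritic cells, B cells and macrophages in the class II results was not tested.

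Markers of other cells that a sort of lung or tumor could carry along were measured as well. T and NK cell markers (8 genes) summed to at most 4.68 CPM in BM IMs and to 5.71 to 56.4 CPM in TIMs. Neutrophil markers (7 of 8 in the table) summed to 1008 to 3201 CPM in BM IMs and 432 to 1551 CPM in TIMs, and alveolar macrophage markers (7 genes) to 60.5 to 259 CPM and 17.2 to 68.6 CPM. Epithelial markers (7 genes) summed to 143 to 742 CPM in primary tumor TIMs, 0.901 to 4.68 CPM in lymph node TIMs and 6.56 to 112 CPM in lung TIMs. The part of any of these cells in the class II results was not tested.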

How the data were processed

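The authors trimmed reads with BBDuk, aligned read pairs to mm10 (GRCm38) with BBMap, and featureCounts 1.5.2 assigned them to genes (SAMtools 1.8 is also named in the submitters' processing notes). The deposited values are their raw counts per gene symbol. Libraries (SMARTer, Nextera XT) carried no strand, and each library held 80772922 to 101043568 counts. Groups came from the labels. CPM used TMM factors over 21 libraries. Separate fits, each with only the libraries compared, were made with edgeR 4.0.16 in R 4.3.3 (default low-count filter with a minimum count of 10, robust quasi-likelihood test, adjustment over all genes tested) and were first tested on simulated data. All 10 genes passed the filter in each of the 6 fits. Levels between genes were divided by the union of GENCODE vM21 exons. Alternatives were DESeq2 1.42.0, its size factors, other filters, all 5 groups in 1 fit, a replicate block and leaving out each library. The 10 genes, the gene lists and the thresholds were chosen with earlier results of these data known. Named genes were the 10, up to 4 genes per pathway list by largest change, and the 5 genes most like Cd74 and H2-Oa, and H2-Ea-ps and March1 were named from the lists. Symbols of the lists that were absent from the table (H2-Ea, Marchf1, Marchf8, Ighm, Adgre1 and Ly6g) were not analysed here.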

Additional observations from a re-analysis of the deposited data

Results flagged for a closer look

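In 3 of 30 groups of 5 libraries (10 genes in 3 TIM groups), the highest or lowest library lay far from the other 4 by Dixon's test, which chance does in about 5% of groups. They were H2-Eb1 in LN4K1 lung TIMs, where replicate 4 was highest at 597 CPM, H2-Oa in LN2E1 primary tumor TIMs, where replicate 3 was lowest at 3.42 CPM, and H2-Ob in LN4K1 lung TIMs, where replicate 3 was highest at 2.07 CPM.

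The change from BM IMs differed between LN2E1 primary tumors and LN4K1 lungs by an interaction term for 4 of the 10 genes, beside 26.5% of all genes tested, with differences of log2 fold changes of 1.46 for Cd74, 1.22 for H2-Ab1, 1.40 for H2-Oa and -1.06 for H2-DMb1 (edgeR). Model, strain and tissue cannot be told apart in these differences.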

How the results depend on the processing

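Calls at an adjusted p below 0.05 moved little: leaving out each library gave 10 of 10 genes in primary tumors, 9 to 10 in lymph nodes and 8 in LN4K1 lungs. The stricter DEG counts moved more. Apart from the replicate block, the shares of all genes called in the fits below are not given here. Whether calls moved for all genes alike can therefore not be read from these counts. With all 5 groups in 1 fit they were 7 for lymph nodes, 8 for lungs and 2 between the strains, and with DESeq2 8, 7 and 3, shrunken or not. Leaving out a library gave 0 to 6 DEGs in lungs (0 whichever DBA2 BM IM library was left out and without lung replicate 1 or 2, and 6 without replicate 3) and 0 to 2 between the strains (2 without FVB replicate 3 and 0 with any other left out). Between the strains, calls at 0.05 were 3 to 5 with a library left out (3 without FVB replicate 2 or DBA2 replicate 2 or 3) and 3 with all groups in 1 fit. Among values that missed the threshold, H2-Aa and H2-Ob between the strains and H2-Eb1 in the interaction changed sign without 1 FVB BM IM library: with each library left out, H2-Aa ranged from -0.29 to 0.11, H2-Ob from -1.43 to 0.071 and H2-Eb1 from -0.11 to 0.61. Samples of the same replicate number had correlations from -0.15 to 0.08. These cannot show whether samples are paired, and the labels do not say. A replicate block gave 0 DEGs in primary tumors, lymph nodes, lungs and between the strains, 0 over all genes too, and 9, 9, 8 and 4 of the 10 genes at 0.05. H2-Oa in primary tumors then had an adjusted p of 0.155, and 0.0610 with all groups in 1 fit. In lymph nodes the block took the call from H2-Ob (adjusted p = 0.0912) and gave one to H2-Oa (0.0194), and it took the calls of H2-Ab1 between the sites (0.0599) and of H2-Oa between the strains (0.0700) and in the interaction (0.0661). In lymph nodes every FVB number correlated best with its own. The fewest counts behind these genes were those of H2-Ob, at 13 to 120 in BM IMs, and of H2-Oa, at 54 to 162 in LN4K1 lungs, and whether depth limits their calls was not tested.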
